A study of Arabidopsis thaliana with 4 samples.

Results

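The genes described are cytochrome P450 genes of Arabidopsis thaliana, taken as every probe set with a single gene whose symbol or synonym is CYP followed by a family number and a subfamily letter. The rule found 23 probe sets for 23 genes, out of 22746 probe sets other than controls. The RefSeq gene table of the TAIR10.1 assembly holds 252 genes with such a name, so 229 of them are not analysed here. Of the 23 members 19 belong to the CYP71B subfamily, and CYP51G, CYP78A, CYP79A and CYP84A have 1 member each.

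Plant cytochrome P450 enzymes are haem-containing monooxygenases, most of them anchored in the endoplasmic reticulum, where a reductase passes them electrons from NADPH. Families are numbered and subfamilies lettered by sequence likeness, and the large CYP71 family has grown in part by tandem duplication, which leaves rows of related genes side by side. Members act in the synthesis of defence compounds, phenylpropanoids, sterols, fatty acid polymers and hormones, and the substrate of many CYP71B enzymes is not settled.

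Transcript levels were measured on 4 Affymetrix ATH1 arrays. Sorted protoplasts (2 arrays) were cells freed from the root by wall digestion and run through a fluorescence-activated sorter that kept every cell. Whole roots (2 arrays) were harvested intact. Both groups were Columbia seedling roots at 6 days after germination that had been moved to 140 mM NaCl for 1 hour, so salt treatment is shared and no array shows untreated roots. The comparison addresses how far protoplasting and sorting alter transcript levels in salt-treated roots. Wall digestion and sorting were always done together and add time after the salt treatment, so these parts cannot be told apart. No label ties the replicates to separate plantings or cultures, so each p-value reflects just the variation among these 4 arrays, and that could be technical.

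Values are MAS5 signals, an intensity per probe set on a linear scale that the authors had brought to the same trimmed mean on every array. Differences are of log2(signal + 16), sorted protoplasts minus whole roots, which understates the change of dim probe sets. The median signal was 80.7 and 79.0 on the sorted-protoplast arrays and 82.3 and 90.2 on the whole-root arrays. Of 23 root cell type and shoot markers listed, 6 had a single-gene probe set, and all of these passed the signal filter. The root hair expansin genes EXPA7 and EXPA18 fell, with summed signals of 282 and 372 in sorted protoplasts and of 1348 and 1812 in whole roots. The xylan gene IRX15 rose, at 218 and 128 in sorted protoplasts and 54.8 and 47.2 in whole roots, so its mean passed the filter through the sorted-protoplast arrays. In the fit without the filter EXPA18 kept its call (limma adjusted p = 0.0210), while EXPA7 (adjusted p = 0.0553) and IRX15 (adjusted p = 0.113) lost theirs. The stele gene LHW and the shoot genes RCA and LHCB4.1 did not pass the test. Their summed signals were 267 and 144 in sorted protoplasts against 177 and 205 in whole roots for LHW, and 279 and 142 against 320 and 437 for the shoot genes. None of the 6 was at 0 on any array. The part of cell type makeup in the values below was not tested. In bulk RNA, fewer cells of a type and less RNA per cell cannot be told apart.

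Most of the 23 P450 genes were dim, among them most of the CYP71B subfamily. Of its 19 members 5 passed the signal filter, and of the 4 others 2 did. Of the 23 members 7 (30.4%) passed the signal filter at a mean of about 51.3, against 60% of all probe sets, and these 7 entered the test. A signal under 16 on all 4 arrays was found for 7 members (30.4%), against 11.6% of all probe sets, and on 1 or more arrays for 12 members, against 29.7% of all probe sets. Such values are within the range where MAS5 signals scatter most. Beyond these shares, no probe set's signal is set against that of another gene. With 2 arrays a group, precision is limited throughout.

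**Figure D1:**
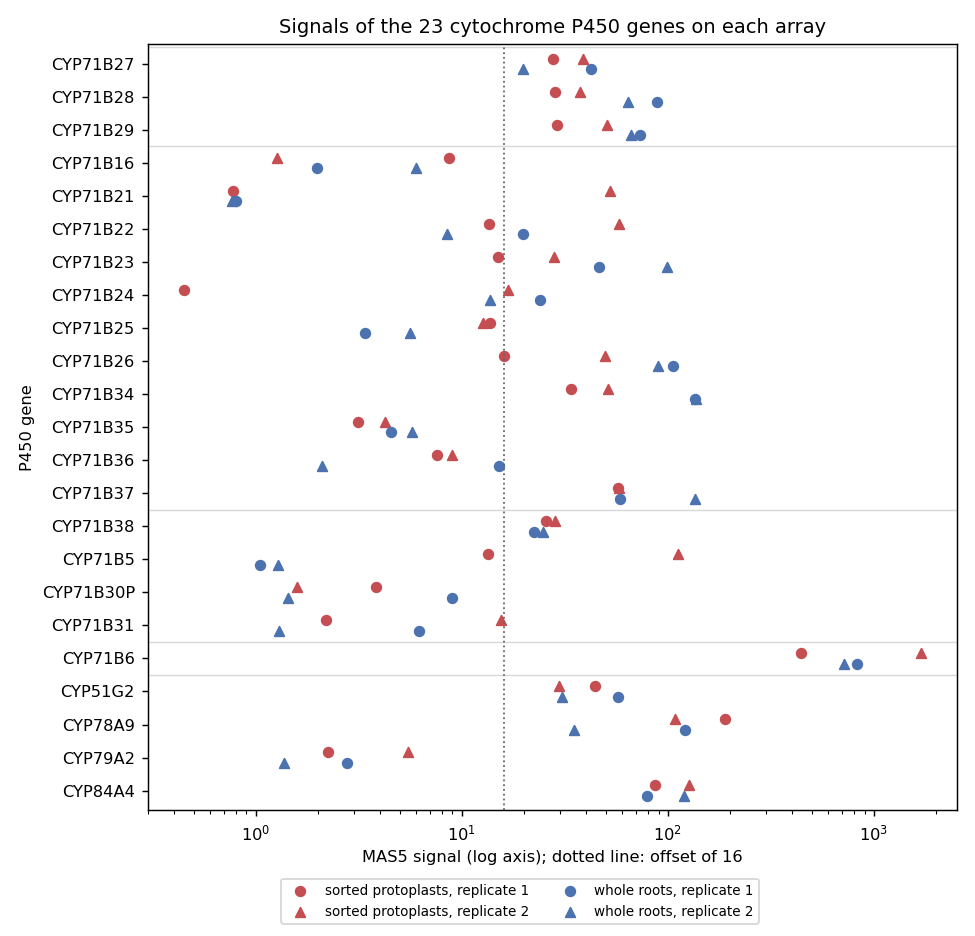
MAS5 signals of the 23 P450 genes, with the genes down the page and the signal on a log axis. Circles are replicate 1 and triangles replicate 2, with sorted protoplasts above whole roots in each row. Grey lines divide the chromosome 1 row of CYP71B genes, the row of 11 on chromosome 3, other CYP71B genes of chromosome 3, CYP71B6 of chromosome 2 and the other families. CYP71B34 and CYP71B26 lie lower on both sorted-protoplast arrays, and 7 genes lie left of the dotted line on all 4 arrays.

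In limma's test with Benjamini-Hochberg adjustment over all 13647 probe sets that passed the filter, 1 P450 gene fell in sorted protoplasts and 0 rose. Of all probe sets tested, 4.11% were called lower and 6.38% higher, together 10.5%. At an unadjusted p under 0.05, 2 P450 genes were lower and 0 higher, against 14.5% and 11.8% of all probe sets tested. Fitted without the signal filter, which brings in all 23 members and 22746 probe sets, the test called 0 P450 genes in either direction, against 1.73% of all probe sets called higher and 0.602% called lower (2.33% together), with 4 P450 genes lower and 2 higher at an unadjusted p under 0.05, against 10.8% and 8.45% of all probe sets.

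The gene that fell was CYP71B34 (AT3G26300), a CYP71B enzyme gene whose substrate is not named in the sources used here. It had signals of 33.8 and 51.4 in sorted protoplasts, against 135 and 137 in whole roots. Both sorted-protoplast arrays were well below both whole-root arrays, which nearly coincided. The mean was 42.6 ± 12.5 in sorted protoplasts and 136 ± 1.01 in whole roots (SD, n = 2 each). The log2 difference was -1.39 ± 0.34 (SE), with a 95% interval from -2.15 to -0.64 and an adjusted p of 0.0301 in limma. Without sorted-protoplast replicate 1 the adjusted p was 0.0782, without whole-root replicate 1 it was 0.196 and without whole-root replicate 2 it was 0.164, so the call was lost without any of these 3 arrays. It was kept without sorted-protoplast replicate 2 (adjusted p = 0.0112). The call was also lost in the fit without a signal filter (limma adjusted p = 0.102). The gene passed the filter of about 51.3 through the whole-root arrays, since its sorted-protoplast mean was 42.6.

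CYP71B26 (AT3G26290), with 1 annotated gene between it and CYP71B34, had 16.03 and 49.6 in sorted protoplasts, against 106 and 89.3 in whole roots. The groups did not overlap, but the sorted-protoplast arrays lay far apart from each other. The log2 difference was -1.30 ± 0.40 (SE), with a 95% interval from -2.19 to -0.41, and just missed the threshold (limma adjusted p = 0.0684, unadjusted p = 0.00886). Without sorted-protoplast replicate 2 it was -1.82 and passed (limma adjusted p = 0.00285), and without replicate 1 of that group it was -0.79 and did not (adjusted p = 0.236). With arrays scaled on hybridization spike-ins it also passed (difference -1.68, limma adjusted p = 0.0202). In the fit without a signal filter CYP71B26 did not pass (limma adjusted p = 0.182). Its mean passed the filter through the whole-root arrays, since both sorted-protoplast signals were below the filter.

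Both genes belong to a row of 11 measured CYP71B genes on chromosome 3, running from CYP71B16 (AT3G26150) to CYP71B37 (AT3G26330). Within this row CYP71B34, CYP71B35, CYP71B36 and CYP71B37 are adjacent, as are CYP71B21, CYP71B22 and CYP71B23. Of the 11 genes 3 passed the filter, 6 had a negative difference and 5 a positive one, with a median of -0.10. Over all 22746 probe sets the median was -0.11. Apart from CYP71B34, 0 genes of the row passed the test.

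CYP71B37, at the far end of the row, had 57.2 and 57.6 in sorted protoplasts, against 58.6 and 135 in whole roots. Its 4 arrays separated by group only by the small gap between 57.6 and 58.6. The log2 difference was -0.53 (limma 95% interval -1.42 to 0.36, adjusted p = 0.433). CYP71B23 had 14.9 and 28.1 in sorted protoplasts, against 46.2 and 98.7 in whole roots. Those groups did not overlap, but the gene was below the filter, and without the filter its difference of -1.19 had an adjusted p of 0.197 in limma. CYP71B24 had 0.4501 and 16.8 in sorted protoplasts, against 23.9 and 13.7 in whole roots, and its groups overlapped.

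CYP71B21 and CYP71B22 owed their positive differences to a single array. CYP71B21 had 0.778 and 52.5 in sorted protoplasts, against 0.805 and 0.764 in whole roots. CYP71B22 had 13.6 and 58.0 in sorted protoplasts, against 19.7 and 8.45 in whole roots. In both, sorted-protoplast replicate 2 stood above the other 3 arrays, which included the other array of its own group, and the groups overlapped. CYP71B25 had 13.6 and 12.6 in sorted protoplasts, against 3.37 and 5.63 in whole roots. It was higher on both sorted-protoplast arrays but under 16 on all 4, with a difference of 0.51 (limma without the filter, adjusted p = 0.226). CYP71B16, CYP71B35 and CYP71B36 were also under 16 on every array, with differences of 0.05, -0.10 and 0.03.

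The 3 CYP71B genes of chromosome 1 stand in a row as well, with 1 annotated gene between CYP71B27 and CYP71B28. CYP71B28 had 28.3 and 37.4 in sorted protoplasts, against 88.3 and 64.1 in whole roots. CYP71B29, the gene beside it, had 29.0 and 50.4 in sorted protoplasts, against 72.9 and 66.1 in whole roots. Both genes were lower on both sorted-protoplast arrays, as were 32.7% of all probe sets. Their log2 differences were -0.91 and -0.64, and neither passed the test. CYP71B29 was just inside the filter, with an adjusted p of 0.266 in limma and a 95% interval from -1.41 to 0.12. CYP71B28 was just outside it, and without the filter its adjusted p was 0.226 in limma. CYP71B27, which RefSeq lists as a transcribed pseudogene, had 27.8 and 38.8 in sorted protoplasts, against 42.1 and 19.9 in whole roots, and its groups overlapped.

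A further group of 3 CYP71B genes lies close together elsewhere on chromosome 3. CYP71B5 had 13.3 and 111 in sorted protoplasts, against 1.05 and 1.28 in whole roots. Both sorted-protoplast arrays were higher, one of them far more than the other. Its difference of 1.83 had an adjusted p of 0.194 in limma without the filter, with a 95% interval from 0.29 to 3.38. Because its whole-root signals were far below the offset, the difference was 3.12 with an offset of 4 and 0.84 with one of 64, and it was 0.77 without sorted-protoplast replicate 2. CYP71B30P, whose symbol marks a pseudogene but which RefSeq lists as protein coding, was under 16 on every array, with a difference of -0.16. CYP71B31, which in flowers oxidises the terpene alcohol linalool, had 2.18 and 15.4 in sorted protoplasts, against 6.16 and 1.29 in whole roots, a difference of 0.29. CYP71B38, on the same chromosome with no measured P450 gene near it, had 25.7 and 28.4 in sorted protoplasts, against 22.3 and 24.8 in whole roots, a difference of 0.12.

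**Figure D2:**
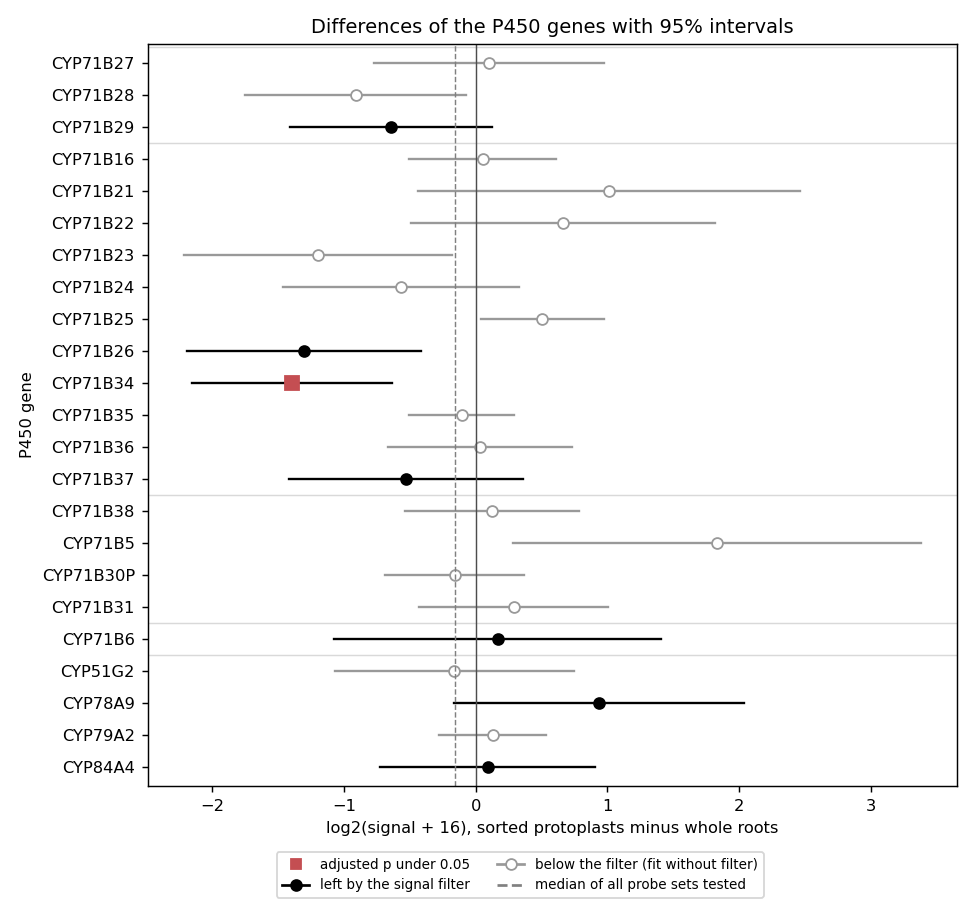
Log2 differences of the 23 P450 genes, sorted protoplasts minus whole roots on the horizontal axis, with limma's 95% intervals. Filled symbols are the 7 genes that passed the signal filter, open circles the 16 below it, whose intervals come from the fit without the filter, and the red square is CYP71B34 at -1.39. The solid line is 0 and the dashed line the median of all probe sets tested, -0.16.

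CYP71B6, which oxidises indole-3-acetonitrile, a compound formed from tryptophan in defence metabolism, had 440 and 1684 in sorted protoplasts, against 828 and 713 in whole roots. The sorted-protoplast arrays lay on either side of the whole-root arrays, so the groups overlapped. The mean was 1062 ± 880 in sorted protoplasts and 770 ± 81.1 in whole roots (SD, n = 2 each), and the log2 difference of 0.17 had a 95% interval from -1.08 to 1.41 (limma adjusted p = 0.880). Without sorted-protoplast replicate 2 the difference was -0.78 and without replicate 1 of that group it was 1.12, so its direction turned on which array was used, and it did not pass in either fit.

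Members of the other families showed no call. CYP78A9, of a family known for organ growth and here a gene that promotes seed and fruit growth, had 189 and 109 in sorted protoplasts, against 121 and 34.9 in whole roots. One whole-root array was above one sorted-protoplast array. The difference of 0.94 had a 95% interval from -0.17 to 2.04 (limma adjusted p = 0.261). CYP84A4, which acts in arabidopyrone synthesis from a phenylpropanoid precursor, had 86.5 and 127 in sorted protoplasts, against 79.1 and 120 in whole roots. The arrays of each group differed more from each other than the groups did, and the difference of 0.09 had a 95% interval from -0.73 to 0.91 (limma adjusted p = 0.901). CYP79A2, which turns phenylalanine into phenylacetaldoxime for benzylglucosinolate, was under 16 on every array, with 2.23 and 5.45 in sorted protoplasts against 2.77 and 1.36 in whole roots. CYP51G2, a transcribed pseudogene in RefSeq related to the sterol demethylase gene of the CYP51 family, had 44.2 and 29.5 in sorted protoplasts, against 57.4 and 30.7 in whole roots, and its groups overlapped.

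Counted over all 23 genes, 13 had a positive and 10 a negative difference, with a median of 0.05, against -0.11 over all probe sets. Groups did not overlap for 3 genes that were higher in sorted protoplasts (13.0%) and 7 that were lower (30.4%), against 18.6% and 32.7% of all probe sets (51.3% together). All 10 were CYP71B genes, which make up 19 of the 23 members. Of these 19, 15.8% were higher and 36.8% lower without overlap. Those with lower signals were CYP71B23, CYP71B26, CYP71B28, CYP71B29, CYP71B34, CYP71B35 and CYP71B37. These shares lay near or below the background. CYP71B26 and CYP71B29 had means above the filter although both their sorted-protoplast signals were below it, and CYP71B34 had one such signal below it and the other just above, so the count called lower among the members tested is not independent of the filter. With arrays scaled on spike-ins, which moved the median of all probe sets tested to -0.57 from -0.16, 16 of the 23 differences were negative and the median of the 23 was -0.19. Relative to the median of all probe sets tested, CYP71B34 was at -1.24 as deposited and at -1.20 with spike-in scaling.

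The sorted-protoplast arrays differed from each other in many P450 genes. Signals were higher on replicate 2 than on replicate 1 of that group for 18 of the 23 genes (78.3%), against 49.6% of all probe sets. The median log2 difference between these arrays, replicate 2 minus replicate 1, was 0.32 over the P450 genes, against -0.0045 over all probe sets. It was largest for CYP71B5 at 2.12, CYP71B21 at 2.03 and CYP71B6 at 1.90. Among the 18 genes it was as small as 0.0066 for CYP71B37 and 0.082 for CYP71B35. Of the 23 genes 19 are related CYP71B genes, so they are not separate observations. The sorted-protoplast arrays differed by more than 1 for 5 P450 genes (21.7%), against 10.6% of all probe sets. The whole-root arrays did so for 2 P450 genes (8.70%), against 6.37% of all probe sets. Between the whole-root arrays, signals were higher on replicate 2 for 9 of the 23 genes, against 12046 of 22746 probe sets. The median log2 difference there, replicate 2 minus replicate 1, was -0.11 over the P450 genes and 0.030 over all probe sets.

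**Figure D3:**
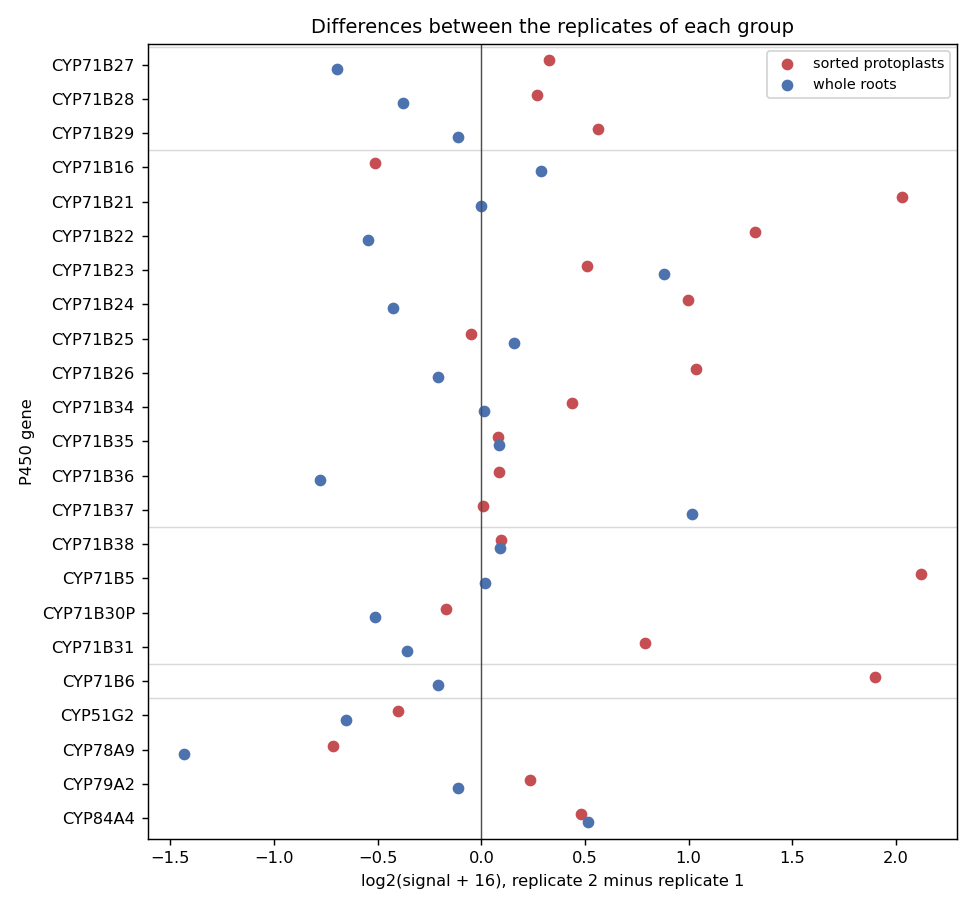
Log2 difference between the arrays of each group, replicate 2 minus replicate 1 on the horizontal axis, for each P450 gene down the page. Red points are sorted protoplasts and blue points whole roots. CYP71B5, CYP71B21, CYP71B6, CYP71B22 and CYP71B26 have red points beyond 1, and CYP71B37 and CYP78A9 blue points beyond 1 in either direction.

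Few genes of the pathways that P450 enzymes serve could be matched to a probe set. The platform annotation left 8730 of the 22746 probe sets unlisted, so the other pathway genes may be on the array unnamed. Of 133 listed partners and pathway genes of 10 lists, 7 had a single-gene probe set with a matching name and 6 were tested. Of these 2 rose and 0 fell, against 6.38% called higher and 4.11% called lower among all probe sets tested. The flavonoid gene DFR was below the filter. In the phenylpropanoid list CCR2, a cinnamoyl-CoA reductase, had 966 and 2491 in sorted protoplasts, against 114 and 321 in whole roots, and the log2 difference was 2.90 ± 0.56 (SE) at an adjusted p of 0.0113 in limma, a call lost without the signal filter (adjusted p = 0.0688). HCT, the acyltransferase that makes the substrate of a lignin P450, had 2115 and 1963 in sorted protoplasts, against 2593 and 2458 in whole roots, and AT3G13610 (F6'H1), of coumarin synthesis, had 76.9 and 68.6 against 103 and 178. Both were lower on both sorted-protoplast arrays, with differences of -0.31 and -0.78, and did not pass. Of all probe sets that passed the filter, 36.2% were likewise lower without overlap.

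In the glucosinolate list UGT74B1, a glucosyltransferase that follows the P450 steps, had 468 and 658 in sorted protoplasts, against 403 and 667 in whole roots. PYK10, a root beta-glucosidase, had 4708 and 6802 in sorted protoplasts, against 6049 and 7399 in whole roots. In both genes the groups overlapped, with differences of 0.09 and -0.24. In the jasmonate list JRG21, an oxygenase that is not a P450, had 585 and 2800 in sorted protoplasts, against 45.5 and 25.8 in whole roots, and rose by 4.68 ± 0.63 (SE) at an adjusted p of 0.00201 in limma. Its mean passed the filter through the sorted-protoplast arrays, and without the filter the adjusted p was 0.0335. The redox partner, root triterpene, sterol and brassinosteroid, gibberellin, abscisic acid, suberin and cutin, and cytokinin and strigolactone lists had 0 tested genes.

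**Figure D4:**
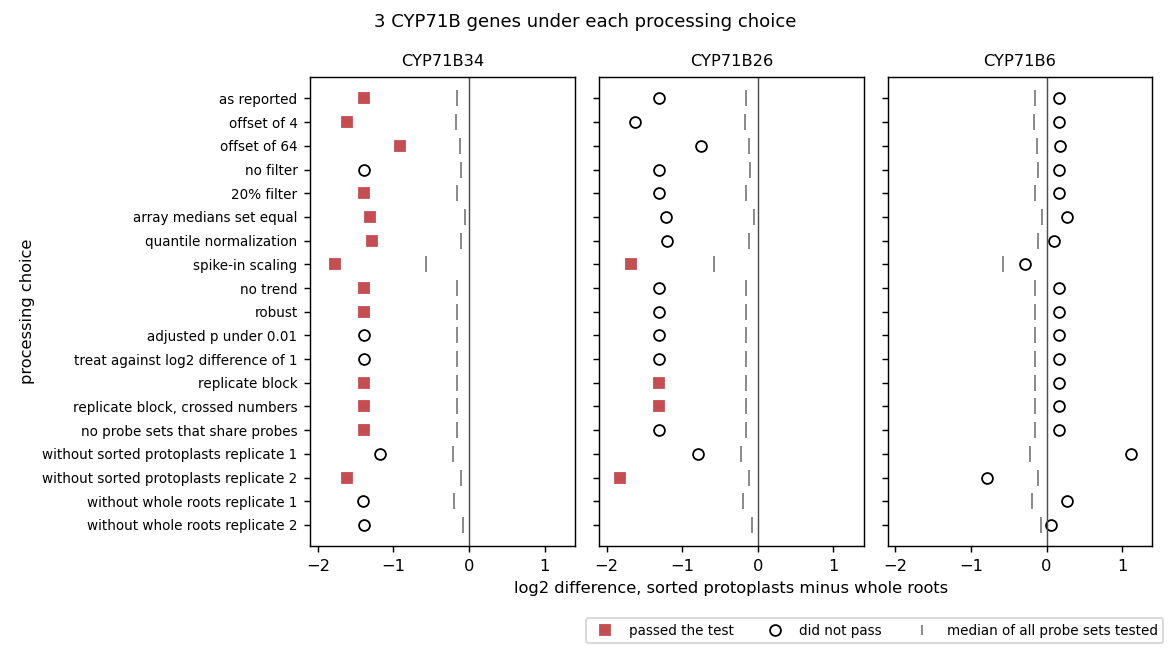
Log2 differences, sorted protoplasts minus whole roots, of CYP71B34, CYP71B26 and CYP71B6 under each processing choice listed down the page. Red squares passed the test, open circles did not, and grey ticks are the median of all probe sets tested. CYP71B34 passed in 12 of 18 alternatives and CYP71B26 in 4 of the 16 that kept it above the filter. CYP71B6 was negative without sorted-protoplast replicate 2 and on spike-in scaling, and positive under the other choices.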

How the data were processed

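The authors amplified RNA in a 2-cycle protocol, per the labels' protocols. Each deposited value is a linear signal intensity from MAS5, as the submitters' processing notes name it, and arrays had a trimmed mean (2% left out at each end) of about 250.02 on each array. Of 22810 probe sets 64 were controls. Among the others 13513 had 1 gene in the platform annotation, 503 had several and 8730 were not listed and are unnamed here. Names were updated to the RefSeq table. No member's probe set name marks shared probes, but cross-hybridization between related CYP71B genes was not tested. 0 columns were left unmapped.

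Control probe sets and the 40% of others with the lowest mean log2(signal + 16) were left out. The groups were compared with limma 3.58.1 in R 4.3.3 (eBayes, trended prior variance, 2 residual and 7.56 prior degrees of freedom), two-sided, with a threshold of 0.05 on the Benjamini-Hochberg adjusted p. Named were all members, and pathway genes with a probe set. Listed genes whose symbol did not match the locus were left out (8 of 133 pathway genes, 1 of 23 markers). The members and lists were chosen with earlier results of these data known. Alternatives were other offsets, filters, scalings, prior variances, thresholds, a replicate block, a fit free of probe sets named as sharing probes, and fits on 3 of the 4 arrays.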

Additional observations from a re-analysis of the deposited data

How the results depend on the processing

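In each of the 18 alternatives 0 P450 genes were called higher (limma, 0 to 2 at an unadjusted p under 0.05). The count called lower, 1, became 0 when no filter was used, when the adjusted p had to be under 0.01 or when limma tested for more than a log2 difference of 1. It became 2 on spike-in scaling, and was between 0 and 2 in the fits on 3 arrays, where a lone array is assumed to vary like the other group. The sign changed for 2 of the 7 genes tested, neither of them called. On spike-in scaling CYP71B6 was at -0.29 and CYP84A4 at -0.32. Relative to the median of all probe sets tested both stayed positive there. CYP71B6 was at 0.32 as deposited and 0.29 with spike-in scaling, and CYP84A4 at 0.25 and 0.26. In the fits on 3 arrays CYP71B6 lay between -0.78 and 1.12 and CYP84A4 between -0.17 and 0.35. The cause was not tested. The 16 genes below the filter had 16 values that moved by more than the replicate spread, 10 of them under another offset.

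Replicates share a number and nothing else in the labels, and the correlation of deviations between arrays of the same number was -0.156. A replicate block for that number gave 2 P450 genes called lower, CYP71B34 and CYP71B26, and so did crossed numbers, which were tried after seeing the data. Over all probe sets, calls were 870 higher and 561 lower. They were 394 and 137 when unfiltered, 393 and 107 at the stricter adjusted p, 236 and 37 for differences beyond 1, and 421 and 680 on spike-in scaling. Leaving out whole-root replicate 1 gave 169 and 41, and leaving out replicate 2 of that group gave 145 and 15. Signals under 16 made up 19.6% to 22.1% of an array, and differences there are hard to see.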

Other observations

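CYP718, a P450 gene outside the naming rule because its name has no subfamily letter, was chosen after its values were seen. It had signals of 64.8 and 13.3 in sorted protoplasts, against 187 and 133 in whole roots. Both sorted-protoplast arrays were lower. The log2 difference was -1.84 ± 0.48 (SE), with a 95% interval from -2.91 to -0.77 and an adjusted p of 0.0385 in limma. Its mean passed the signal filter through the whole-root arrays. The sorted-protoplast mean of 39.0 was below the filter, though the signal of 64.8 was above it. Without the filter the limma adjusted p was 0.142. The platform annotation also holds 2 probe sets that match several genes of which at least 1 has a CYP name, and these are not reported.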
